A study of Mus musculus with 6 samples.

Results

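The glycolytic isoenzymes described here are 10 genes chosen by name: Hk1, Hk2, Pfkm, Pfkp, Aldoa, Eno1, Eno2, Eno3, Ldha and Ldhb. Every probe set annotated to only 1 of these genes was used, which gave 19 of the 45037 probe sets of the array. They covered 9 of the 10 genes, out of 18193 genes named on the array. Eno1, the enolase of most tissues, had no probe set annotated to it alone in the annotation used, and it was not analysed here. All 19 probe sets passed the filter on dim values. The genes were chosen with earlier results of these data known: Eno2 had been picked out for its difference between mutant and wild-type hearts. Values of that comparison are therefore given as a description, with no test.

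RNA of 6 mouse hearts was hybridised to Affymetrix Mouse430_2 arrays, 3 from EphB4 mutant mice and 3 from wild-type mice, all of the strain given as C57B6. Ephb4 encodes a receptor of endothelial cells for ephrin-B2, and the series concerns signalling by ephrin-B2 while the ventricular wall forms. The labels give neither the kind of mutation nor the age or sex of the mice. Sample descriptions begin with the letters eM for mutant 3 and wild-type 3, and with eI for mutants 1 and 2 and wild types 1 and 2. What the letters stand for is not stated, and whether each array stands for a separate animal rests on the design text, which speaks of 6 mice.

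Glycolysis turns glucose into pyruvate in the cytosol, and lactate dehydrogenase can reduce that pyruvate to lactate. Several of its steps are catalysed by isoenzymes, proteins of the same activity encoded by separate genes that differ between tissues and ages. The embryonic heart is known to lean on glycolysis, and the adult heart burns mainly fatty acids.

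The hearts differed most by their letters. Along the main axis of a principal component analysis, with 60.4% of the variance, mutant 3 (52.6) and wild-type 3 (34.1) lay apart from the eI hearts (-24.3 to -17.9). Ephb4 read 7.93 to 8.14 in mutant and 7.83 to 8.20 in wild-type hearts on the log2 scale, and the genotypes overlapped. The level of Xist, the RNA that coats an inactive X chromosome, was low in mutants 1 and 3 (6.73 and 6.78) and high in mutant 2 (11.75) and all wild-type hearts (11.51 to 12.33). Defining markers of heart muscle were bright in all hearts, with a mean over 10 genes of 13.50 to 13.53 in mutant and 13.48 to 13.61 in wild-type hearts.

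The promoter windows of 4 genes are shown because these are the genes the results turn on. Ldhb and Eno3 were the members whose brightest probe set passed the test between eM and eI hearts, Ldha encodes the other subunit of the enzyme of Ldhb, and Eno2 was picked out by genotype. Each window runs from 250 bases before to 50 bases after a gene start in RefSeq (build GRCm38.p6), 5′ to 3′ on the gene's strand. Capitals mark ACGTG on either strand, the core of the hypoxia response element, including CACGTG, the E-box bound by Myc and related proteins, which overlaps it.
Ldhb, chr6:142507908-142508207, minus strand: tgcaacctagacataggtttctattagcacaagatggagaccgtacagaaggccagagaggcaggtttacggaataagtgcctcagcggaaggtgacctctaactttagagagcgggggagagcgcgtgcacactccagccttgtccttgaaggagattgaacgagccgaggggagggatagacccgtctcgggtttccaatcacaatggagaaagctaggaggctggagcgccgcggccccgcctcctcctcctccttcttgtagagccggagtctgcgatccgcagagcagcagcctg
Eno3, chr11:70656926-70657225, plus strand: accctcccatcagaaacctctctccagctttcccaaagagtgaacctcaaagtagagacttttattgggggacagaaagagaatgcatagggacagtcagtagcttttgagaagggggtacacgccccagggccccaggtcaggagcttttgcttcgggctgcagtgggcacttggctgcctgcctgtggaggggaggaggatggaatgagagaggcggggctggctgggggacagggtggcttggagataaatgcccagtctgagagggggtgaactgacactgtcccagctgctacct
Eno2, chr6:124769624-124769923, minus strand: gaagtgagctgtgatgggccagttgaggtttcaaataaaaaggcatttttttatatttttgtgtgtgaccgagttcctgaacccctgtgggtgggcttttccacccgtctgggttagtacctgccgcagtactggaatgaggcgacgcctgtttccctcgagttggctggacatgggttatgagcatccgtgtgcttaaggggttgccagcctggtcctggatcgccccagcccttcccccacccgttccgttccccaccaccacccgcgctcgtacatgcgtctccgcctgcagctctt
Ldha, chr7:46845554-46845853, plus strand: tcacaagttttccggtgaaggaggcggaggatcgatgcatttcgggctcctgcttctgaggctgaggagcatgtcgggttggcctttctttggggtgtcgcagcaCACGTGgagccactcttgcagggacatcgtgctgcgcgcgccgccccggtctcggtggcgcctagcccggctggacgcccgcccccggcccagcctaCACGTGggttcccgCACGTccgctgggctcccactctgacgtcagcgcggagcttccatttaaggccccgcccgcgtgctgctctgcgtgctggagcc
The Ldha window held 3 separate stretches with the core, which began 145, 48 and 34 bases before the gene start. A second Ldha window, chr7:46846832-46847131, held none, and neither did the windows of Ldhb, Eno3, Eno2, Pfkp and Eno1. ACGTG on either strand was found in a window of 5 of the 10 genes (Hk1, Hk2, Pfkm, Aldoa and Ldha), against 21.8% of the 27025 genes with a window. CACGTG was found for 2 of the 10 (Pfkm and Ldha), against 8.09% of genes. By window, ACGTG was in 7 of the 19 windows of these genes, against 19.6% of 32851 windows. CACGTG was in 2 of the 19, against 7.15%. The Aldoa windows that held the core overlap and share the same stretch. These are matches of letters in short windows, several genes had more than 1 window, and they are given as a description.

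In the genome (GRCm38.p6) the genes are scattered, with 3 on chromosome 6 and 2 on chromosome 7. Hk2 spans 82725025 to 82774454, Eno2 124760053 to 124769673 and Ldhb 142490249 to 142507957 on chromosome 6. Ldha spans 46842274 to 46855627 and Aldoa 126795234 to 126800994 on chromosome 7, and Eno3 spans 70653125 to 70662513 on chromosome 11. The other 4 lie on chromosome 10 (Hk1), chromosome 15 (Pfkm), chromosome 13 (Pfkp) and chromosome 4 (Eno1).

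Levels below are log2 intensities of the brightest probe set of a gene, unless another is named. A level of 1 gene is not set against that of another, since probe sets differ in how strongly they bind. Differences by letters (eM minus eI) were tested with limma over all 13572 genes kept, with genotype in the fit and Benjamini-Hochberg adjustment, and were called at an adjusted p under 0.05. In bulk hearts, fewer cells of a type and less RNA per cell cannot be told apart.

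**Figure D1:**
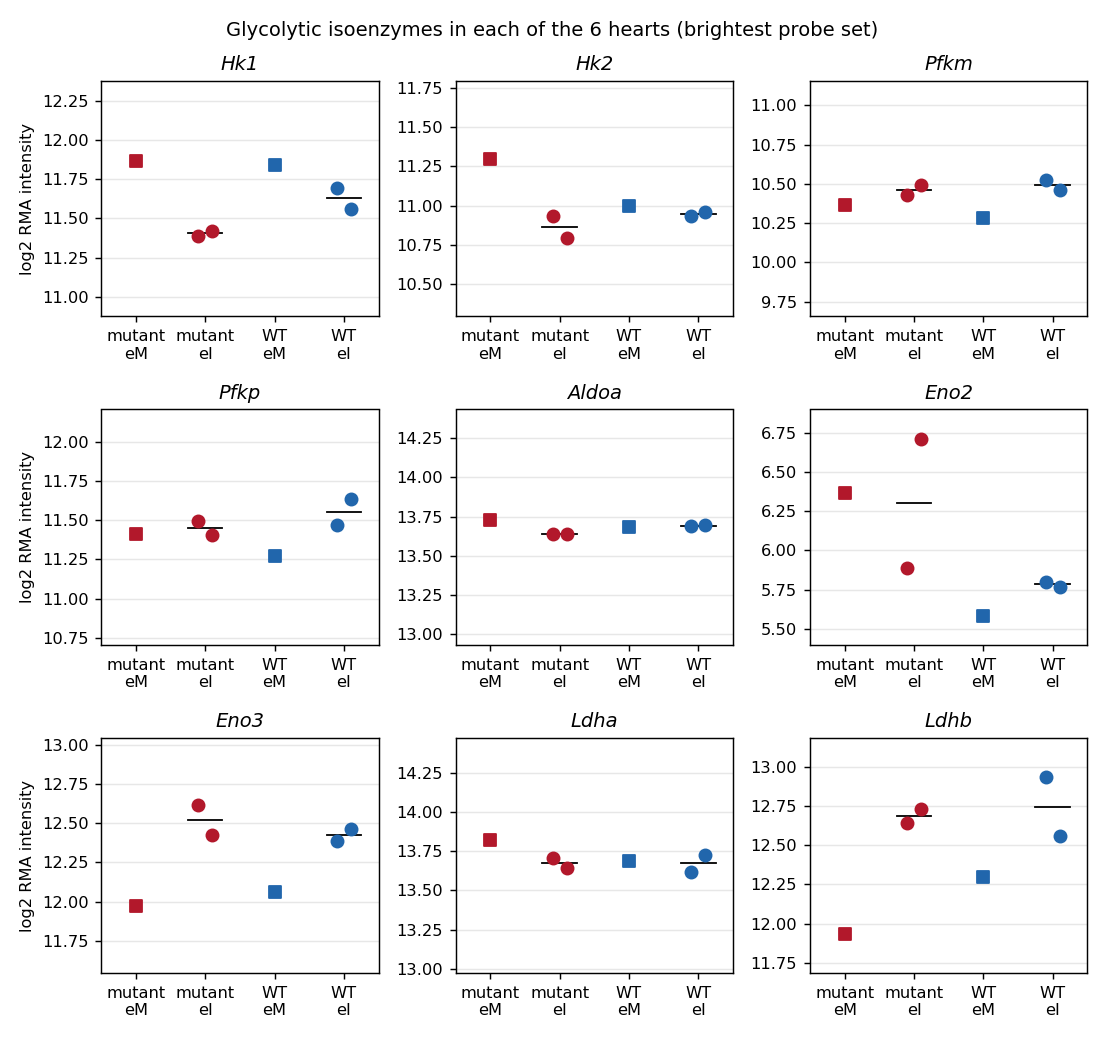
Log2 RMA intensity of 9 glycolytic isoenzyme genes in each of the 6 hearts (squares, the eM heart of a genotype; circles, its 2 eI hearts; black lines, their mean). Red is EphB4 mutant and blue is wild type, and every panel spans the same range on its log2 axis. Eno3 and Ldhb sit lower in both eM hearts than in any eI heart, and Eno2 sits higher in all 3 mutant hearts than in any wild-type heart.

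Between eM and eI hearts, Ldhb and Eno3 were lower in eM, and none of the other 7 genes passed the test at the brightest probe set. In limma, 2 of the 9 genes were called, both lower, against 10.3% of all 13572 genes called in either direction. Of all genes 5.82% were called lower and 4.47% higher. The 9 genes had a median eM minus eI difference of -0.07 log2, beside -0.03 for all genes tested. At the level of probe sets, 6 of 19 passed, 4 of them of Ldhb, against 11.7% of 27022 probe sets. The eM group did not overlap the eI group at 5 of the 9 genes, where 44.6% of all genes showed no overlap, so that share is close to that of the array.

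Hexokinase makes glucose 6-phosphate and holds glucose in the cell. Hk1 encodes the isoenzyme of most tissues, and its brightest probe set read 11.86 in mutant 3 and 11.84 in wild-type 3. In eI hearts it read 11.39 and 11.42 in mutants and 11.69 and 11.56 in wild types. Both eM hearts were above every eI heart, yet the difference of 0.33 ± 0.10 (SE) did not pass the test (limma, adjusted p = 0.0774).

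The dimmer probe set of Hk1 did pass over probe sets. It read 8.17 and 8.06 in the eM hearts of mutant and wild type, against 7.35 and 7.38 in eI mutants and 7.54 and 7.66 in eI wild types. The difference was 0.63 log2, a fold of 1.55 (limma, adjusted p = 0.0214), and 6.75% of all probe sets were called higher. So the probe sets of Hk1 moved the same way by different amounts, and only the dimmer passed. Without mutant 1, mutant 2 or mutant 3 it no longer passed (adjusted p = 0.0763, 0.0923 and 0.216), while it passed without any of the 3 wild-type hearts.

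Hk2 encodes the hexokinase of muscle and heart that insulin and low oxygen induce. Its level was 11.29 in mutant 3 and 11.00 in wild-type 3, against 10.93 and 10.79 in eI mutants and 10.93 and 10.96 in eI wild types. Mutant 3 stood above the other hearts, and wild-type 3 lay only just above the eI wild types. The difference of 0.24 had a 95% confidence interval of -0.03 to 0.51 and did not pass (limma, adjusted p = 0.209).

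Phosphofructokinase catalyses the committed step of glycolysis, and its subunits differ by tissue. Pfkm, the muscle subunit, read 10.37 in mutant 3 and 10.29 in wild-type 3, against 10.43 and 10.49 in eI mutants and 10.53 and 10.46 in eI wild types. Pfkp, the subunit known from platelets, read 11.41 and 11.27 in the eM hearts of mutant and wild type, against 11.49 and 11.40 in eI mutants and 11.47 and 11.64 in eI wild types. Pfkm was slightly lower in both eM hearts without overlap, and the groups overlapped for the brightest probe set of Pfkp. Their differences were -0.15 (95% confidence interval -0.35 to 0.05) and -0.16 (-0.40 to 0.09), neither past the threshold (limma, adjusted p = 0.268 and 0.338). The other probe sets of Pfkp gave -0.33 and -0.35, with both eM hearts below all eI hearts. Neither passed (limma over probe sets, adjusted p = 0.136 and 0.261), and the dimmest read 5.54 to 6.27 across hearts.

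Aldoa, the aldolase of muscle and many other tissues, had 5 probe sets, none of them past the threshold. Its brightest read 13.73 in mutant 3 and 13.68 in wild-type 3, against 13.64 and 13.64 in eI mutants and 13.69 and 13.70 in eI wild types. Over the 5 probe sets the eM minus eI difference ran from 0.04 to 0.15, all of them positive. The hearts thus lay within a narrow band for Aldoa, and the 95% confidence interval of the brightest probe set was -0.15 to 0.23. 

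Enolase makes phosphoenolpyruvate, and its subunits differ by tissue: Eno3 is that of striated muscle and Eno2 that of neurons. Eno3 read 11.97 in mutant 3 and 12.06 in wild-type 3, against 12.61 and 12.43 in eI mutants and 12.38 and 12.46 in eI wild types. Both eM hearts lay below all 4 eI hearts. The difference was -0.46 ± 0.10 (SE), a fold of 0.73 (limma, adjusted p = 0.0392). It was -0.55 within mutant and -0.36 within wild-type hearts.

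The Eno3 call was close to the threshold. Leaving out wild-type 1 kept it (limma, adjusted p = 0.0354). Leaving out another heart lost it: the adjusted p was 0.0536 or 0.0797 with wild-type 2 or 3 left out, and 0.127, 0.132 or 0.308 with mutant 1, 2 or 3 left out. It was also lost with no filter on dim probe sets (adjusted p = 0.059). The sign was negative each time, from -0.55 to -0.36. The interaction of genotype with letters was -0.18 for Eno3 (adjusted p = 0.868).

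Lactate dehydrogenase is a tetramer of subunits from Ldha, the form of skeletal muscle, and Ldhb, the form of the adult heart. Ldhb read 11.93 in mutant 3 and 12.30 in wild-type 3, against 12.64 and 12.73 in eI mutants and 12.93 and 12.56 in eI wild types. Both eM hearts were below every eI heart, and mutant 3 was the lowest. The difference was -0.60 ± 0.14 (SE), a fold of 0.66 (limma, adjusted p = 0.0456), with -0.75 within mutant and -0.45 within wild-type hearts.

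All 4 probe sets of Ldhb passed over probe sets. Their differences ran from -0.72 to -0.49, where 4.94% of probe sets were called lower. At the probe set of the largest difference the eM hearts read 11.86 (mutant) and 12.13 (wild type), against 12.62 and 12.71 in eI mutants and 12.96 and 12.55 in eI wild types. The probe sets share a transcript, so they count as the same gene measured repeatedly. At the brightest of them, tested over genes, the call held with wild-type 2 left out (limma, adjusted p = 0.0228) and was lost with wild-type 1 or 3 left out (0.0537 or 0.0892), with mutant 1, 2 or 3 left out (0.131, 0.155 or 0.363) and with no filter (0.0635). The difference ran from -0.75 to -0.45 with 1 heart left out.

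Ldha did not pass the test. It read 13.82 in mutant 3 and 13.68 in wild-type 3, against 13.71 and 13.65 in eI mutants and 13.62 and 13.73 in eI wild types. The groups overlapped, and the difference was 0.08 with a 95% confidence interval of -0.13 to 0.29 (limma, adjusted p = 0.571). The promoter windows shown for Ldha and Ldhb above differed in the hypoxia core, which only the Ldha window held among these windows. Whether the core bears on these levels was not tested.

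**Figure D2:**
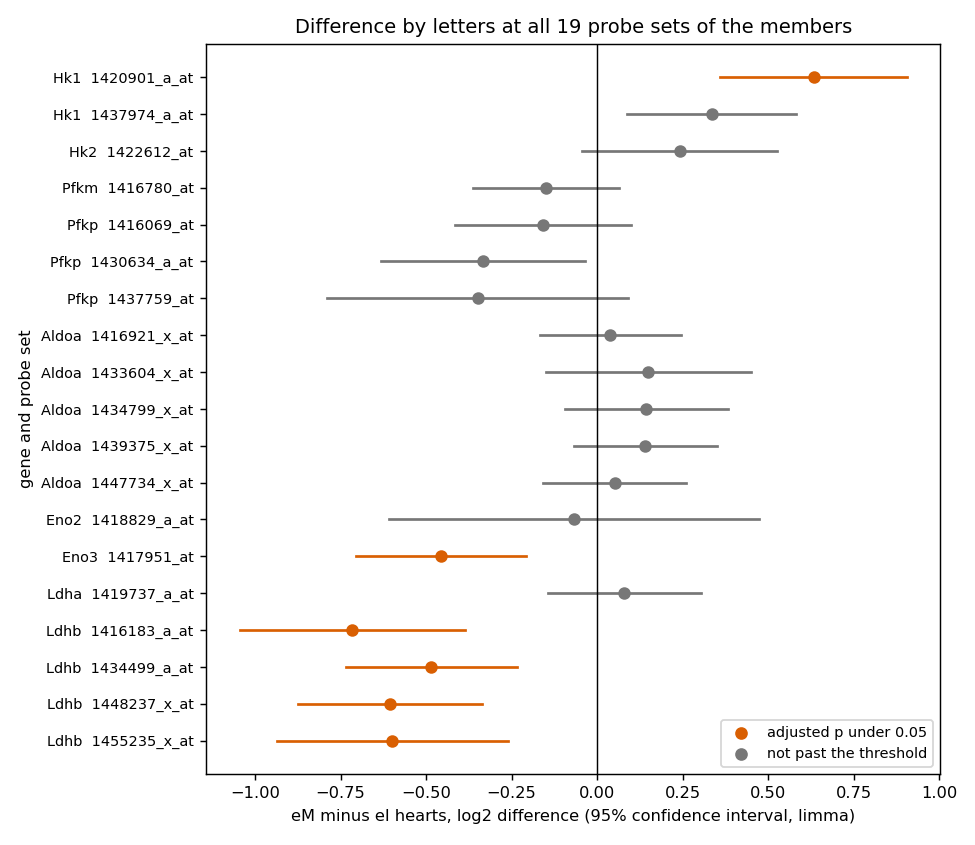
Difference eM minus eI (log2, horizontal axis) at each of the 19 probe sets, with the 95% confidence interval of the limma fit over probe sets. Orange marks an adjusted p under 0.05: the 4 probe sets of Ldhb and that of Eno3 lie below 0 and 1 of the 2 probe sets of Hk1 lies above it.

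Isoenzymes of a step were then followed as pairs, by how far their log2 difference within a heart moved from its eI mean. Ldhb minus Ldha stood at -0.93 in mutant 3 and -0.43 in wild-type 3, while the eI hearts ranged from -0.21 to 0.27. The shift of -0.68 was outside the eI hearts in both eM hearts. Hk2 minus Hk1 moved by -0.09 (0.04 in mutant 3 and -0.23 in wild-type 3, eI range -0.15 to 0.16), and Pfkm minus Pfkp by 0.01. With the mean of all probe sets of a gene these were -0.24 and 0.13. Eno3 minus Eno2, a pair chosen after seeing that Eno1 could not be used, stood at -0.82 in mutant 3 and 0.05 in wild-type 3, against an eI range of -0.71 to 0.29, a mean shift of -0.39. Mutant 3 was thus outside the eI hearts and wild-type 3 within them. A shift shows that the probe sets of a pair moved unequally, and no test was made on it. Probe sets of a single gene also moved unequally, by 0.33 and 0.63 for Hk1. Unequal change of the RNAs themselves cannot be read from a shift alone.

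By genotype, Eno2 was the member picked out, and its values are given as they were chosen. It read 5.89, 6.71 and 6.37 in mutants 1, 2 and 3, against 5.80, 5.77 and 5.58 in wild types 1, 2 and 3. All mutant hearts were above all wild-type hearts, but mutant 1 exceeded the highest wild type by little, and mutant 2 and mutant 3 carried most of the difference. The means were 6.32 ± 0.41 in mutant and 5.72 ± 0.12 in wild-type hearts (SD, n = 3 each), a difference of 0.61 log2 or a fold of 1.52. The difference was 0.52 within eI and 0.78 within eM hearts.

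Eno2 has a single probe set here, and it was dim: the filter left out probe sets with a mean below 5.38, and with 60% of probe sets left out instead, Eno2 was no longer tested. Its difference was 0.41 without mutant 2, 0.82 without mutant 1 and 0.54 to 0.65 without 1 of the others. With the Xist level as a covariate it was 0.98. That fit leans on mutant 2, the only mutant heart whose Xist level lay within the range of the wild types. By letters Eno2 moved by -0.07, with a 95% confidence interval of -0.61 to 0.47 (limma, adjusted p = 0.865).

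Neuronal markers overlapped between the genotypes. The mean over the 10 of 12 listed neuronal and neuroendocrine markers with a probe set was 5.89 to 6.19 in mutant and 5.87 to 6.11 in wild-type hearts. Of the 7 tested, 3 had a positive mutant minus wild-type difference (median -0.02). The 7 tested had mean levels of 5.43 (Elavl4) to 8.82 (Uchl1), and Tubb3, a tubulin of neurons, read 6.38, 6.01 and 8.70 in mutants 1, 2 and 3 and 6.01 to 7.77 in wild-type hearts. The remaining 3, Snap25 (mean 3.46), Chga (5.34) and Syp (5.35), were below the filter level. Mutant 2, with the highest Eno2, had the lowest marker mean of the mutants, but single markers differed. Among those tested, Prph (6.42) and Uchl1 (9.02) were highest of the mutants in mutant 2. Tubb3, Stmn2 and Elavl4 were lowest there, and Elavl3 and Th lay between the other mutants. The part of neuronal cells in the Eno2 values was not tested.

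The other 8 genes lay close together between genotypes, with differences of -0.16 (Ldhb) to 0.05 (Ldha) at the brightest probe set. In all 8 the mutant and wild-type hearts overlapped. Hk1 differed by -0.14, Hk2 by 0.04, Pfkm by 0.01, Pfkp by -0.03, Aldoa by -0.02 and Eno3 by 0.04. So Eno2 was the only 1 of the 9 genes with no overlap between genotypes, where 4.39% of all genes had none and 2.14% lay higher in mutants without overlap. With a fold of at least 1.5 as well, the share of all genes was 0.0663%. These are shares of the contrast that Eno2 was picked from, and nothing is read from them. In limma 0 of 13572 genes (0%) were called by genotype, with 127 (0.936%) at an unadjusted p under 0.05.

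**Figure D3:**
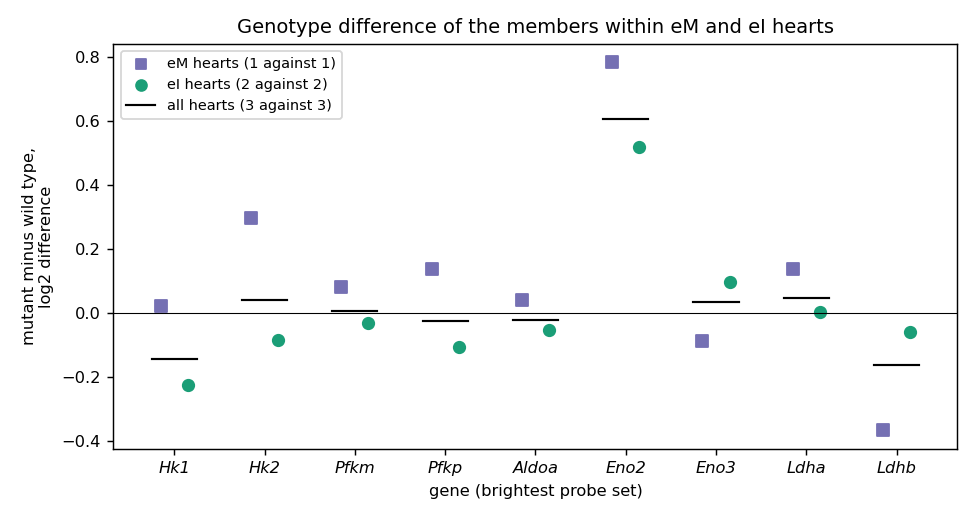
Mutant minus wild-type difference (log2, vertical axis) of 9 genes within the eM hearts (squares, 1 against 1), within the eI hearts (circles, 2 against 2) and over all hearts (lines, 3 against 3). Eno2 is above 0 in both kinds of heart (0.78 and 0.52), and Hk1, Hk2, Pfkm, Pfkp, Aldoa and Eno3 have opposite signs in eM and eI.

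At 9 of the 19 probe sets the genotype difference had opposite signs in eM and eI hearts. Several of these belong to the same gene, the share over all probe sets was not counted, and nothing is read from the count. Hk2 differed by 0.30 in eM and by -0.08 in eI, and Hk1 by 0.02 and -0.22. For Ldhb it was -0.37 in eM and -0.06 in eI. The interaction term called 0 of 13572 genes in limma (0%), with 966 (7.12%) at an unadjusted p under 0.05, and the members' adjusted p ran from 0.718 (Hk2) to 0.937 (Eno2). The eM side of each of these rests on 1 heart per genotype.

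Genes whose profile over the 6 hearts was most like that of a member were found by the root mean square difference of centred log2 values, among 13563 other genes. The 5 closest to Eno2 were 2810002D19Rik (0.22), Il1r2 (0.24), Hcrtr2 (0.24), Spink4 (0.25) and Gimap8 (0.26). The spread of Eno2 itself, the root mean square of its own centred values, was 0.39. The closest gene was Tcn2 for Ldhb (0.03, beside a spread of 0.32), Mmp11 for Eno3 (0.04, spread 0.23) and Rps25 for Hk1 (0.03, spread 0.19). For the flatter members it was Pif1 for Hk2, Tlr9 for Pfkm, Nmnat2 for Pfkp, Sys1 for Aldoa and Cnot11 for Ldha, at 0.01 to 0.02.

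Of 83 other genes of glucose use and its control, counted once each, 13 (15.7%) passed the same test between eM and eI hearts, against 10.3% of all genes. Of these 5 (6.02%) rose and 8 (9.64%) fell, against 4.47% and 5.82% of all genes, and the lists were chosen with earlier results known. Of 20 other glycolytic enzymes, 14 were tested and 2 (14.3%) were called, with a list median of -0.11. Pkm, which encodes the pyruvate kinase of muscle and of growing cells, was higher: it read 12.27 and 12.00 in the eM hearts of mutant and wild type, against 11.63 to 11.76 in eI hearts, a difference of 0.46 (limma, adjusted p = 0.0468). Aldoc, the aldolase of brain, was lower at 8.42 and 8.88, against 9.25 to 9.41, a difference of -0.70 (adjusted p = 0.0208). As with Ldhb and Eno3, both eM hearts of Aldoc lay below all eI hearts. Several uncalled genes of this list did the same, and 44.6% of all genes had no overlap by letters.

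Glucose and monocarboxylate transport had 10 genes, all tested, of which 2 (20%) were called, 1 higher and 1 lower (median -0.02). Slc2a1, the glucose transporter of embryonic and many other cells, read 13.32 and 13.27 in the eM hearts of mutant and wild type, against 12.61 to 12.98 in eI hearts (difference 0.53, limma adjusted p = 0.0469). Bsg, the chaperone of lactate transporters, read 11.73 and 11.90, against 12.22 to 12.36 (-0.46, adjusted p = 0.0363). Of 5 enzymes that make or break fructose 2,6-bisphosphate, the activator of phosphofructokinase, 4 were tested and 0 passed (median 0.21). Pfkfb3 had a difference of 0.51 (adjusted p = 0.0631) and Pfkfb4 of 0.28 (adjusted p = 0.249).

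Pyruvate handling, a list of the mitochondrial pyruvate carrier, pyruvate carboxylase and the pyruvate dehydrogenase complex with its kinases and phosphatases, had 14 genes, of which 13 were tested (median -0.21). Of these 5 (38.5%) were called, against 10.3% of all genes: 4 (30.8%) fell, against 5.82% of all genes, and 1 rose. Pdk4, a kinase that switches pyruvate dehydrogenase off, differed by -0.98 (limma, adjusted p = 0.0207). Mpc1, a subunit of the mitochondrial pyruvate carrier, differed by -0.82 (adjusted p = 0.0428). Pdhx and Pdhb, parts of the pyruvate dehydrogenase complex, differed by -0.55 (adjusted p = 0.0269) and -0.42 (adjusted p = 0.0446). Pdp2, a phosphatase that switches the complex on, differed by 0.57 (adjusted p = 0.0271). Among the genes called, the inhibitor Pdk4 thus fell and the activator Pdp2 rose, while Pdhx and Pdhb of the complex itself fell.

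Of 13 glycogen enzymes 11 were tested and 1 (9.09%) passed, against 10.3% of all genes (median -0.05). It was Pygl, the phosphorylase known from liver, higher by 0.40 (limma, adjusted p = 0.0414). Of 21 regulators of glycolytic genes 20 were tested and 2 (10%) passed, near the share of all genes (median 0.02). Mycn, a Myc factor of growing embryonic tissue, was higher by 0.61 (adjusted p = 0.0256), and Egln3, a hydroxylase that marks hypoxia-inducible factor for breakdown and is induced by it, differed by -0.84 (adjusted p = 0.0367). Of 15 hypoxia-inducible genes outside glycolysis 14 were tested and 3 (21.4%) were called, with a median of -0.10. Slc2a1 was higher, and 2 were lower (Egln3, and Ndrg1 at -0.84, limma adjusted p = 0.0302). Among the genes called, Slc2a1 and Egln3 stand in 2 of these lists.

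**Figure D4:**
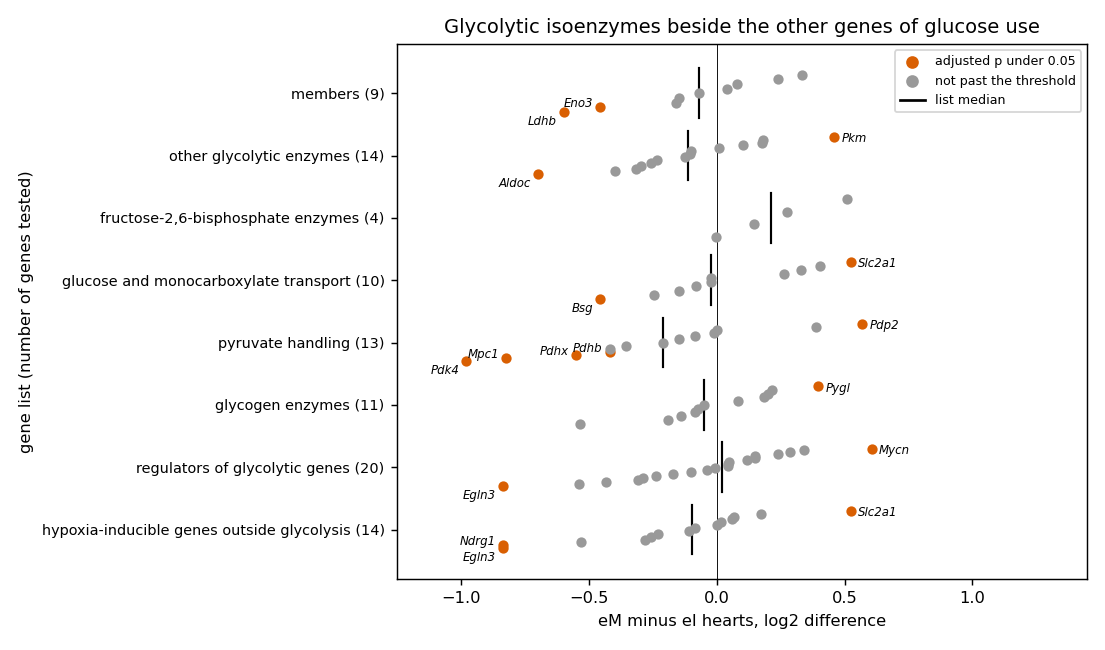
Difference eM minus eI (log2, horizontal axis) of each tested gene, by list, with the number tested in brackets (orange, adjusted p under 0.05 in limma; black line, list median). Within the isoenzymes Ldhb and Eno3 lie to the left, as do Aldoc, Bsg and 4 genes of pyruvate handling, while Pkm, Slc2a1, Pdp2, Pygl and Mycn lie to the right.

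These calls by letters rest on few hearts. Without mutant 3 limma called 0 of the genes tested, without mutant 2 it called 2, without mutant 1 158 and without wild-type 3 790, beside 1397 with all 6 hearts. With genotype and the Xist level as covariates it called 183 genes and none of the 9 isoenzyme genes (Ldhb adjusted p = 0.121, Eno3 adjusted p = 0.116).

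Markers of other cell types and measures of RNA quality also differed by letters. Beside the counts below, 5.82% of all genes were called lower in eM and 4.47% higher. Erythroid markers were lower in eM at all 6 tested genes, 3 of them called, with a list mean of 6.63 to 6.77 in eM and 7.45 to 8.69 in eI hearts. Fibroblast markers were lower at all 7 (2 called; 9.18 to 10.17 in eM and 10.67 to 11.22 in eI hearts), and so were macrophage markers at all 5 tested (2 called; 5.55 to 5.59 and 6.23 to 6.73). Platelet and megakaryocyte markers were lower at all 6 (2 called; 7.17 to 7.42 in eM and 7.87 to 8.31 in eI hearts), and liver and endoderm markers at all 5 tested (1 called; 5.13 to 5.34 and 6.33 to 8.03).

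Heart muscle markers differed far less, at 13.53 to 13.61 in eM and 13.48 to 13.51 in eI hearts. Only 3 of the 10 were higher in eM, Myh6 and Ryr2 among them and called, and the median difference was -0.06. Skeletal muscle markers stand for the cells in which Eno3 and Pfkm are known best. Their list mean was 5.57 to 5.69 in eM and 5.48 to 5.66 in eI hearts. Of 4 tested, Mylpf and Actn3 were called higher, while Tnnt3 and Myod1 differed by -0.12 each and were not called. Epicardial markers had 2 called higher and 1 lower of 7 (8.65 to 8.77 and 8.44 to 8.93), smooth muscle markers 2 higher of 6 (10.12 to 10.21 and 9.70 to 9.89), and endothelial markers 1 lower of 8 (9.43 to 9.48 and 9.55 to 9.62). Neuronal markers had none called of 7 (6.11 to 6.19 and 5.87 to 6.03). An RMA value has no zero, so absence of a cell type cannot be read from these levels.

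Control probes at both ends of the beta-actin transcript compare its 3′ with its 5′ part, as a sign of RNA degradation. Their log2 difference was 0.77 in mutant 3 and 0.51 in wild-type 3, against 0.28 to 0.41 in eI hearts. The same measure for Gapdh was closer between the groups, at 0.12 in mutant 3 and 0.03 in wild-type 3, against -0.10 to 0.02 in eI hearts. An 18S rRNA control probe set read 10.48 and 11.17, against 9.80 to 10.16. The part of these cell types and of RNA quality in the Ldhb, Eno3 and Hk1 differences was not tested.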

How the data were processed

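The authors deposited 1 table of log2 intensities per probe set for 6 arrays; the submitters' processing notes name RMA (robust multi-array average) and give no version or settings. Arrays were biotin-labelled, per the labels' protocols. No scanner files were used here, so background could not be assessed, and the number of arrays, 3 per genotype, limits the precision. Values ran from 2.42 to 14.79.

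The 64 control probe sets were set aside, which left 45037. The platform annotation named 1 gene for 34945 probe sets, several for 932 (not used for any gene) and none for 9160 of the rest. Gene IDs of 34741 matched RefSeq (GRCm38.p6) and 0 symbols changed. Probe sets in the lowest 40% by mean (below 5.38) were left out, which left 27022, or 13572 genes at their brightest probe set. limma 3.58.1 (R 4.3.3; lmFit, eBayes, two-sided, Benjamini-Hochberg over all features, threshold 0.05) was fitted for genotype, for letters with genotype, and for their interaction. P-values measure the spread between these arrays. The fit was tested on simulated data. Figures were drawn with matplotlib 3.10.9 (Python 3.11.15).

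The members, lists and tests were chosen with earlier results of these data known. Text names all members, of each list up to 4 genes per direction of smallest p past the threshold (else the 2 of smallest p), and the genes of most similar profile. Markers named among the cell types (Snap25, Chga, Syp, Elavl3, Elavl4, Uchl1, Tubb3, Stmn2, Prph, Th, Myh6, Ryr2, Mylpf, Actn3, Tnnt3, Myod1) were picked after their values were seen. Deviations of same-numbered hearts from their group means had correlations of 0.18, 0.36 and 0.74 for numbers 1, 2 and 3, which meets the rule used for treating title numbers as pairs (every pair over 0.1). Differently numbered eI hearts correlated more than the same-numbered ones, at 0.49 (wild-type 1 with mutant 2) and 0.47 (wild-type 2 with mutant 1), so the correlations do not single out the numbers and follow the letters. Alternatives covered filters, normalization, eBayes settings, array weights, choice of probe set, thresholds, blocks, covariates and leaving out each heart.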

Additional observations from a re-analysis of the deposited data

Results flagged for a closer look

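Among the 4 eI hearts, mutant 2 stood apart from the others for Eno2, at 6.71 against 5.77 to 5.89. Its gap to the nearest heart was 0.871 of the range of the group, above Dixon's 95% critical value for 4 samples. Of 19 probe sets examined it was the only one to do so. Eno2 had been picked for high values in mutant hearts, and the eI group mixes both genotypes, so the chance rate of such a test does not apply here and the value is a description. Without mutant 2 the mutant minus wild-type difference of Eno2 was 0.41 log2, against 0.61 with it.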

How the results depend on the processing

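Over the 16 alternatives that recomputed the p-value, the eM minus eI difference had an adjusted p under 0.05 (limma) in 9 for Ldhb, 7 for Eno3 and 4 for Hk1. The difference itself changed in 12, 10 and 12 of them and kept its sign in each. Between eM and eI, limma called 878 genes with no filter, 0 of them members (3 member probe sets). Centring each array on its median or using array weights left 1 member gene called. At an adjusted p of 0.01, 2 genes and 607 probe sets passed, with 0 member genes and 0 member probe sets; at 0.10, 2745 genes and 5343 probe sets passed. With genotype and Xist as covariates, 183 genes and 1114 probe sets passed, with 0 member genes and 0 member probe sets, and the Eno2 difference turned to 0.030. Pfkm minus Pfkp moved by 0.13 and Hk2 minus Hk1 by -0.24 with the mean of a gene's probe sets, and by 0.20 and -0.39 with the probe set of largest SD. The mutant minus wild-type difference of Eno2 was 0.98 with Xist as a covariate. That fit leans on mutant 2, as Xist was low in the other mutants. With 1 heart left out, 0 to 1937 genes and 1 to 4333 probe sets passed by letters, with 0 to 2 member genes and 0 to 7 member probe sets. By genotype 0 to 2 genes and 0 to 2 probe sets passed. The eM minus eI difference then ran from -0.26 to 0.088 for Eno2 (0.064 without wild-type 3, 0.088 without mutant 2), from -0.00785 (without mutant 3) to 0.085 for Aldoa, from -0.93 to -0.43 for Ldhb minus Ldha and from -0.23 to 0.044 for Hk2 minus Hk1. Leaving out mutant 3 or wild-type 3 leaves 1 eM heart, assumed to vary like the others. The cause of these changes was not tested.

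With the replicate block, genotype called 0 genes and 0 probe sets, and the Eno2 difference was 0.61, as without it. For the letters this block could not be fitted, since number 3 is eM in both genotypes. Each eM value rests on 1 heart per genotype, letters and any unrecorded difference between these hearts cannot be told apart, and Eno2, Pfkm, Eno3, Ldha and Hk2 each rest on 1 probe set.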
